A study of Homo sapiens with 12 samples.

Results

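REC1, an established human mantle cell lymphoma line, was exposed to the BTK inhibitor ibrutinib or to the solvent DMSO, and polyadenylated RNA was sequenced at 4, 8 and 12 h. Each treatment and time had 1 library, so the comparison rests on 3 ibrutinib and 3 DMSO libraries, 6 of the 12 in the series. They were picked by the treatment and time in the headers of the deposited count table. The other 6 libraries held cells given SPX5551 (pol5551 in the sample titles, in a study titled for inhibition of the receptor CXCR4), or SPX5551 with ibrutinib (the combination), at the same times. No dose is given in the sources used here, and no label says whether the libraries came from separate cultures. The 3 times therefore stood in as replicates, and every p-value measures only the spread between these libraries.

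The B-cell receptor signals through the kinases LYN, SYK and BTK to phospholipase C gamma and protein kinase C beta, upstream of NF-kappaB, and to calcium and MAP kinases, which induce the EGR transcription factors. Ibrutinib binds BTK covalently and blocks its activity, and it is used as a drug in mantle cell lymphoma. Transcripts that such signals induce include cytokines, chemokines, activation antigens, and the inhibitors and phosphatases that end the signal.

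The 6 libraries held 19336303 to 28121563 counts, the most in the 8 h ibrutinib library. Of 60483 genes, 14412 passed a filter on low counts and were tested. Levels are CPM, counts scaled to a common library total. B-cell and mantle cell markers summed to 4525 to 5323 CPM in DMSO and 4664 to 5030 CPM with ibrutinib, led by the cyclin gene CCND1 at up to 1760 CPM. SOX11 was at 4.41 to 7.20 CPM, whereas CD5 and FMOD lay below the filter. Markers of T and NK cells summed to 7.18 to 9.40 CPM and those of myeloid cells to 1.04 to 2.09 CPM, and CD2, CD8B, FCGR3A, S100A8 and S100A9 were at 0 in all 6 libraries. Stromal and epithelial markers summed to 82.1 to 96.5 CPM in DMSO and 84.8 to 113 CPM with ibrutinib, and plasma cell markers to 230 to 336 and 207 to 267 CPM. The labels conflict: titles and treatments match the headers, while the free-text descriptions tie each sample to a column of another treatment. Headers were followed throughout. Read by the descriptions, the same comparison gave 1379 genes past the threshold and put all 15 genes described next higher with ibrutinib.

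A small group of transcripts was lower with ibrutinib, and none was called higher in the fit with the low-count filter. Of 14412 genes, 15 (0.104%) were lower at an adjusted p under 0.05 (edgeR's quasi-likelihood test with time as a block, Benjamini-Hochberg adjustment) and 0 (0%) were higher, with 781 lower and 807 higher at an unadjusted p under 0.05. The 15 encode 5 cytokines and chemokines (TNF, LTA, CCL3, CCL4, CCL3L3), 3 surface proteins (CD83, CD69, CD180), the transcription factor EGR3, the phosphatase DUSP2, the NF-kappaB inhibitors NFKBIA and NFKBID, the NF-kappaB target TNFAIP2, and the non-coding RNAs MIR17HG and LINC01480. In 14 of them the 3 ibrutinib libraries all lay below the 3 DMSO libraries, as they did in 407 (2.82%) of all genes tested, and in 461 genes (3.2%) they all lay above. All 15 were lower at 4, 8 and 12 h, against 2198 (15.3%) of all genes. The same libraries picked the 15, so these shares describe them and are no separate test. Without the filter on low counts, 112 genes were lower and 104 higher. DESeq2 gave 38 lower and 2 higher, and the 6 libraries alone 24 lower and 2 higher. The count of 15 moved with single libraries: leaving out DMSO at 4 h left 4 calls, ibrutinib at 4 h 6, ibrutinib at 12 h 3 and DMSO at 12 h 10. Leaving out every 4 h library, those with SPX5551 and the combination included, left 0 calls. Leaving out every 12 h library in the same way gave 670, 330 lower and 340 higher, with all 15 among the lower. Leaving out ibrutinib at 8 h gave 16 and DMSO at 8 h 22. A fit with no time block gave 0, with 341 at an unadjusted p under 0.05 (edgeR). In each of these fits all 15 were negative.

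**Figure D1:**
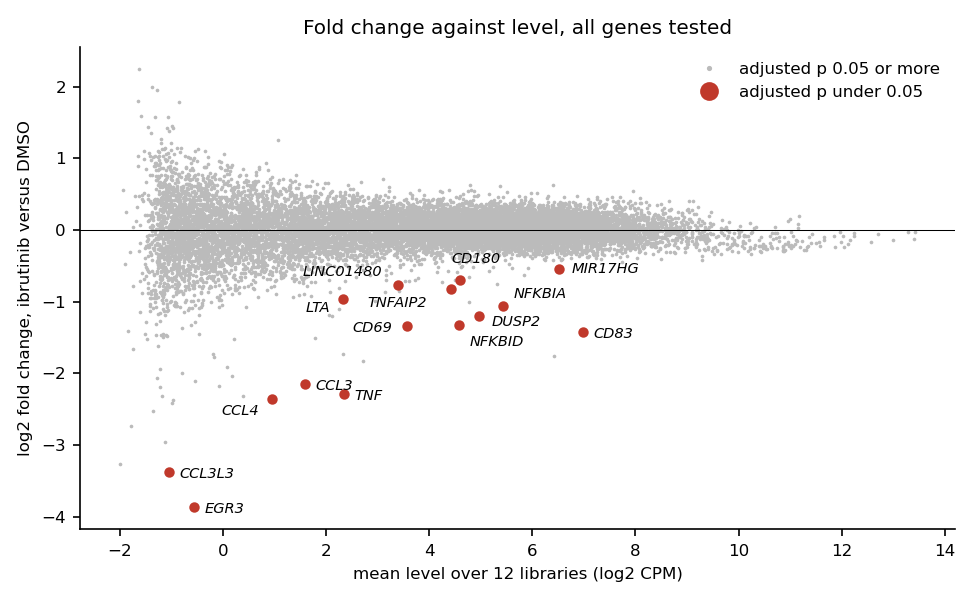
The log2 fold change of ibrutinib versus DMSO (vertical axis) is plotted against the mean level over the 12 libraries in log2 CPM (horizontal axis) for the 14412 genes tested, with the 15 genes past the threshold as large points. All 15 lie below 0, from -0.54 for MIR17HG to -3.87 for EGR3.

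The secreted ligands held 5 of the 15. All values by library are given in the order 4, 8 and 12 h. TNF, an inflammatory cytokine (chr6:31575567-31578336, hg38), was at 14.3, 10.9 and 21.7 CPM in DMSO against 1.04, 4.20 and 4.45 CPM with ibrutinib. Every ibrutinib library was below every DMSO library, and the lowest level was at 4 h, at 7.29% of the matched control. The fitted log2 fold change was -2.28 ± 0.31 (SE, n = 3; adjusted p = 0.00388, edgeR). LTA, lymphotoxin alpha, whose gene lies next to TNF (chr6:31572054-31574324), was at 6.73, 8.58 and 8.50 CPM in DMSO against 3.46, 4.84 and 3.79 CPM with ibrutinib. The groups did not overlap, and the level with ibrutinib was 51.4, 56.4 and 44.6% of the matched control (log2 -0.96 ± 0.17, adjusted p = 0.0377, edgeR). Its call was lost in 12 of the 20 alternatives that follow the headers. LTB, the membrane-bound lymphotoxin partner, was at 54.4, 59.1 and 53.7 against 37.8, 35.3 and 52.6 CPM, and its log2 fold change of -0.42 did not pass (adjusted p = 0.452, edgeR).

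CCL3 and CCL4 are chemokines that B cells secrete after antigen receptor signals and that attract T cells and monocytes. CCL3 (chr17:36088256-36090169) was at 9.83, 4.60 and 5.94 CPM in DMSO against 2.32, 1.24 and 0.96 CPM with ibrutinib. CCL4 (chr17:36103590-36105621) was at 9.35, 2.30 and 3.47 CPM in DMSO against 1.52, 0.68 and 0.56 CPM with ibrutinib. Both were highest at 4 h in either group, and in both the ibrutinib libraries lay below all DMSO libraries. The log2 fold changes were -2.15 ± 0.28 for CCL3 (adjusted p = 0.00341, edgeR) and -2.36 ± 0.27 for CCL4 (adjusted p = 0.00103, edgeR). CCL3L3 (chr17:36194869-36196758), a near-identical copy of CCL3, had 35, 16 and 25 counts in DMSO and 2, 4 and 2 with ibrutinib. Summed over the times and scaled by library size, ibrutinib held 0.0888 of the DMSO level (exact 95% interval 0.0370 to 0.184, counting error only), and the fit gave a log2 fold change of -3.37 ± 0.45 (adjusted p = 0.00365, edgeR). CCL4L2, the copy of CCL4, had 55, 14 and 45 counts against 17, 16 and 2, and its -1.92 did not pass (adjusted p = 0.265, edgeR). How reads were shared between copies is not given, so each copy's value is uncertain. CXCL10, an interferon-inducible chemokine named after its values were seen, was at 116, 25.3 and 31.9 CPM in DMSO against 62.0, 18.3 and 10.3 CPM with ibrutinib; its log2 fold change of -1.01 ± 0.24 did not pass (adjusted p = 0.265, edgeR).

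Among 14 tested surface proteins of activated B cells, 2 passed as lower and 10 had a negative log2 fold change. The list's median was -0.21, beside 47.1% negative and a median of 0.01 over all genes tested. DESeq2 and the fit without the low-count filter each called 4 of the 14 lower. CD83, an activation antigen of B cells and dendritic cells (chr6:14117256-14136918), was at 438, 125 and 182 CPM in DMSO against 141, 63.9 and 60.3 CPM with ibrutinib. It was lower at each time, but the 4 h ibrutinib level lay above the 8 h DMSO level, which made it the single gene of the 15 whose groups overlapped (log2 -1.42 ± 0.20, adjusted p = 0.00390, edgeR). CD69, an early activation antigen that retains lymphocytes in tissue (chr12:9752486-9760901), was at 20.3, 13.7 and 22.9 CPM in DMSO against 5.60, 7.97 and 8.79 CPM with ibrutinib. The ibrutinib libraries were all below the DMSO libraries, furthest at 4 h (log2 -1.34 ± 0.17, adjusted p = 0.00266, edgeR). CD40, the receptor for T-cell help, was at 175, 89.0 and 95.7 against 113, 67.9 and 63.2 CPM, and ICAM1, an adhesion ligand, at 76.9, 37.4 and 60.7 against 32.6, 36.0 and 32.4 CPM. Neither passed (adjusted p = 0.187 and 0.256, edgeR), and ICAM1 was nearly level between the groups at 8 h. CD40 passed in 4 of the 20 alternatives that follow the headers. With every 8 h library of the series left out ICAM1 passed (adjusted p = 0.00387, edgeR), as it did with DESeq2 (adjusted p = 0.0167). It also passed without the 8 h DMSO library, without every 12 h library and without the low-count filter (adjusted p = 0.0202, 0.0317 and 1.0e-07, edgeR).

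CD180, a surface relative of the Toll-like receptors that pairs with LY86 on B cells (chr5:67179613-67196799), was at 30.4, 31.4 and 44.4 CPM in DMSO against 17.9, 23.3 and 23.6 CPM with ibrutinib. The groups did not overlap (log2 -0.70 ± 0.12, adjusted p = 0.0358, edgeR), and the call was lost in 10 of the 20 alternatives. It was the one of 12 tested genes of the Toll-like receptor list to pass. Its partner LY86 was at 53.5, 47.1 and 38.6 against 46.2, 35.8 and 36.9 CPM (log2 -0.23, adjusted p = 0.452, edgeR), and the list's median was 0.08.

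**Figure D2:**
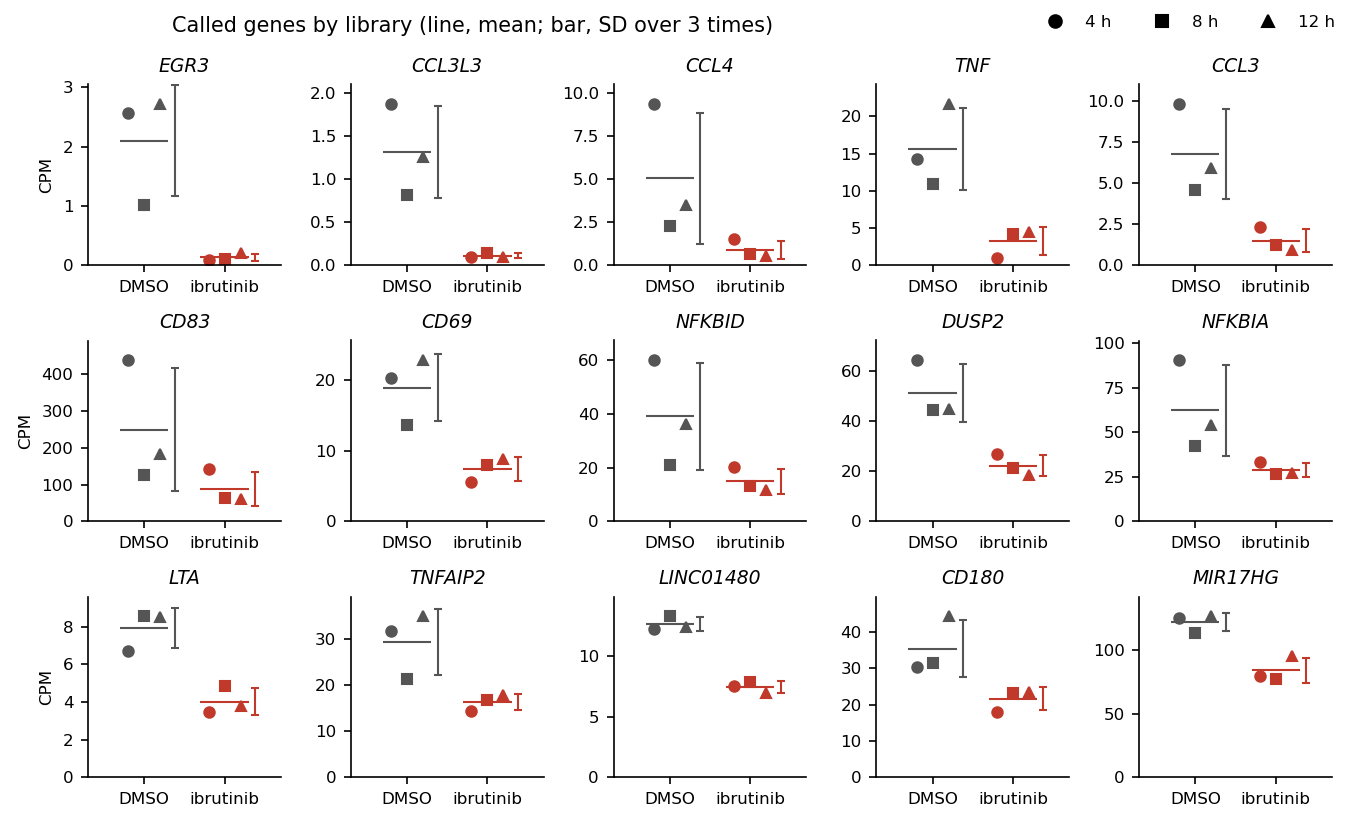
Each panel plots the level of 1 of the 15 genes in CPM (vertical axis, starting at 0) in the 3 DMSO and 3 ibrutinib libraries, with circles for 4 h, squares for 8 h and triangles for 12 h. Lines are means and bars are SD over the 3 times; in 14 panels the 3 ibrutinib points lie below the 3 DMSO points, and in CD83 the 4 h ibrutinib point (141 CPM) lies above the 8 h DMSO point (125 CPM).

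EGR3, an early growth response transcription factor induced through calcium and MAP kinase signals, had the largest fold change of the 15. It had 48, 20 and 54 counts in DMSO and 2, 3 and 4 with ibrutinib, or 2.56, 1.02 and 2.72 against 0.095, 0.107 and 0.202 CPM. The summed ibrutinib level was 0.0622 of that in DMSO (exact 95% interval 0.0278 to 0.122, counting error only), and the fit gave -3.87 ± 0.40 (adjusted p = 7.4e-04, edgeR). DUSP2, a nuclear phosphatase that inactivates MAP kinases (chr2:96143166-96145440), was at 64.4, 44.4 and 44.7 CPM in DMSO against 26.7, 21.5 and 18.5 CPM with ibrutinib. Its level with ibrutinib was 41.5, 48.4 and 41.5% of the matched control (log2 -1.20 ± 0.14, adjusted p = 0.00103, edgeR).

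Other immediate early genes were lower without passing, mostly at 4 h. EGR1 was at 10.3, 8.12 and 10.3 CPM in DMSO against 0.71, 5.12 and 3.84 CPM with ibrutinib, and NR4A1, an orphan nuclear receptor induced by antigen receptor signals, at 31.8, 24.0 and 31.0 against 12.4, 21.4 and 20.7 CPM. In both, all ibrutinib libraries lay below all DMSO libraries, with the widest gap at 4 h. Their log2 fold changes were -1.73 ± 0.40 and -0.70 ± 0.17 (adjusted p = 0.222 and 0.282, edgeR). Without the low-count filter both passed (adjusted p = 2.9e-20 and 2.0e-05, edgeR), and NR4A1 passed with DESeq2 (adjusted p = 0.0304). The log2 fold changes of EGR1 and NR4A1 without the filter were -1.72 and -0.69, so the smaller adjusted p did not come with larger falls. IER2, at 25.6, 34.2 and 25.4 against 14.5, 26.7 and 22.3 CPM, did not pass in the filtered fit either (adjusted p = 0.371, edgeR). It passed without the low-count filter and without every 12 h library (adjusted p = 0.0400 and 0.0193, edgeR). Of 20 tested genes on the list, 1 fell, 17 had a negative log2 fold change and the median was -0.37, beside 47.1% negative and a median of 0.01 over all genes tested. By time, the list's median differences were -0.83, -0.07 and -0.20 at 4, 8 and 12 h.

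NFKBIA encodes the classical inhibitor of NF-kappaB, which NF-kappaB itself induces and which then holds it in the cytoplasm. It lies at chr14:35401511-35404749 and was at 90.6, 42.1 and 54.0 CPM in DMSO against 33.5, 26.7 and 26.9 CPM with ibrutinib. The ibrutinib libraries were all below the DMSO libraries and spread less (log2 -1.06 ± 0.18, adjusted p = 0.0214, edgeR). NFKBID, an atypical nuclear inhibitor of the same family (chr19:35887653-35902303), was at 60.2, 20.9 and 36.2 CPM in DMSO against 20.3, 13.1 and 11.7 CPM with ibrutinib, a log2 fold change of -1.32 ± 0.22 (adjusted p = 0.0205, edgeR). TNFAIP2, induced by TNF through NF-kappaB (chr14:103123442-103137439), was at 31.8, 21.3 and 35.1 CPM in DMSO against 14.5, 16.7 and 18.0 CPM with ibrutinib (log2 -0.82 ± 0.13, adjusted p = 0.0103, edgeR). In both the groups did not overlap, and the gap was narrowest at 8 h.

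The rest of the NF-kappaB feedback and target genes did not pass in the filtered edgeR fit, but some did under other settings. TNFAIP3, which edits ubiquitin chains to shut the pathway off, was at 45.8, 19.1 and 31.9 CPM in DMSO against 26.4, 16.4 and 15.5 CPM with ibrutinib (log2 -0.70 ± 0.15, adjusted p = 0.151, edgeR). BIRC3, an apoptosis inhibitor, was at 90.6, 40.3 and 79.4 against 55.6, 37.0 and 47.9 CPM (adjusted p = 0.161, edgeR). TRAF1, a TNF receptor adaptor, was at 8.39, 4.14 and 6.04 against 2.99, 2.77 and 2.27 CPM with no overlap of the groups (log2 -1.18 ± 0.27, adjusted p = 0.216, edgeR), and it passed with DESeq2 (adjusted p = 0.0131) and with the 6 libraries alone (adjusted p = 0.0342, edgeR). Of 15 tested inhibitors and feedback genes 2 fell and 12 were negative (median -0.28), and of 18 targets of survival and adhesion 1 fell and 12 were negative (median -0.26). Without the low-count filter 6 of the 15 and 6 of the 18 were called lower, and 1 of the 18 higher. That fit called 112 genes lower and 104 higher in all. With DESeq2 3 and 4 were called lower, against 38 lower and 2 higher in all. Without the 12 h libraries 3 of the 18 were called lower and 1 higher. Both medians stayed negative in the 20 alternative fits that follow the headers.

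NFKBIA's promoter is shown because its kappaB site is the textbook example of a gene that NF-kappaB controls and because it falls here. The 250 bases before its start site (RefSeq, GRCh38.p14, chr14:35404750-35404999, minus strand) read, with the match to the kappaB motif in capitals:
NFKBIA: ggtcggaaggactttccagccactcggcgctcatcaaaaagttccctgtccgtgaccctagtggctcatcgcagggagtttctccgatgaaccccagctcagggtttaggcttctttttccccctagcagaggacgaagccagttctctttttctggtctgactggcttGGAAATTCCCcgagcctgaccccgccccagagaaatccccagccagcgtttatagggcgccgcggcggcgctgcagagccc
Of the 15 genes, 11 had windows of this length in the RefSeq table, 17 windows in all. EGR3, CCL4, CD69 and LINC01480 had no window, so the counts of matches say nothing about them. A kappaB match, searched by that motif's name and consensus on both strands, lay in 4 of the 11 genes and in 5 of the 17 windows, against 9.96% of all 35116 windows. The other 3 genes were CD83, LTA and NFKBID, and 30 bases around each match are shown so that the sites can be compared with that of NFKBIA:
CD83 (chr6:14117628-14117657, plus strand): ggcggggacgGGGGCGCCCCggcctaagcg
CD83 (chr6:14117687-14117716, plus strand): ctgcccgccGGGGAATCCCCCgggctggcg
CD83 (chr6:14117712-14117741, plus strand): tggcgcgcaGGGAAGTTCCCgaacgcgcgg
LTA (chr6:31572176-31572205, plus strand): ctaagccctGGGGGCTTCCCcgggccccag
NFKBID (chr19:35900613-35900642, minus strand): agcgcgacccGGGGACTCCCaggcctgtgg
NFKBID (chr19:35899922-35899951, minus strand): gggctgagcaGGAATTCCCCttgcgcgggg
Capitals mark matches, and the runs over 10 bases in CD83 and LTA hold overlapping matches. A loose form of the AP-1 motif with any middle base, TGANTCA, matched in 1 of the 11 genes, CD180, as TGATTCA. That was 1 of the 17 windows, against 6.57% of all windows. The CArG box, bound by SRF, and the cyclic AMP response element TGACGTCA matched in 0 of the 11, against 1.16% and 1.65% of all windows. These matches describe letters in a window and were not tested as binding sites.

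Of the non-coding RNAs, MIR17HG, the host transcript of the miR-17-92 cluster (chr13:91347820-91354579), was at 125, 113 and 127 CPM in DMSO against 79.5, 77.2 and 95.0 CPM with ibrutinib. The groups did not overlap, and the fall was the smallest of the 15 in log2 terms (-0.54 ± 0.09, adjusted p = 0.0139, edgeR), with the call lost in 8 of the 20 alternatives. Its microRNAs are known to promote B-cell growth and survival. The counts measured the host transcript and not the mature microRNAs, whose sequences (RefSeq, GRCh38.p14) are given for the main arm of each hairpin to show which seeds (bases 2 to 8, in capitals) the transcript carries:
hsa-miR-17-5p: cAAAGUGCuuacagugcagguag
hsa-miR-20a-5p: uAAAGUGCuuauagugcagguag
hsa-miR-18a-5p: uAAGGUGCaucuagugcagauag
hsa-miR-19a-3p: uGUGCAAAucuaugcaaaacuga
hsa-miR-19b-3p: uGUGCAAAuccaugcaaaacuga
hsa-miR-92a-3p: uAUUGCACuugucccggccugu
The 6 arms share 4 seeds: miR-17-5p and miR-20a-5p have 1 seed, miR-19a-3p and miR-19b-3p another, and miR-18a-5p and miR-92a-3p each their own. MYC, which is known to induce this cluster, was at 209, 213 and 221 CPM in DMSO against 114, 204 and 185 CPM with ibrutinib. All ibrutinib libraries lay below the DMSO libraries, most at 4 h, but the log2 fold change of -0.41 ± 0.15 did not pass (adjusted p = 0.452, edgeR). MYC passed without the low-count filter (adjusted p = 0.0175, edgeR). Of the other microRNA host transcripts tested, 0 of 6 passed, MIRLET7BHG having the smallest p (log2 -0.76, adjusted p = 0.452, edgeR). LINC01480, a long intergenic RNA (chr19:41535183-41536904), was at 12.2, 13.3 and 12.4 CPM in DMSO against 7.54, 7.82 and 6.92 CPM with ibrutinib. Its groups did not overlap, and its fall was smallest at 4 h (log2 -0.76 ± 0.12, adjusted p = 0.0103, edgeR).

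Scaled by the longest annotated transcript, the mean DMSO level of the 15 ran from 100.5 CPM per kb for CD83 through 42.7 for MIR17HG, 40.0 for NFKBIA and 30.3 for DUSP2 to 0.902 for CCL3L3 and 0.485 for EGR3. The 2 genes with the largest log2 falls were thus the 2 lowest per length.

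With 1 library per treatment and time, the time order of the 15 is a description. In 13 of 15 the fall was smallest at 8 h, the exceptions being MIR17HG (smallest at 12 h) and LINC01480 (smallest at 4 h). Among the 2198 genes lower at all 3 times, 21.3% had their smallest fall at 8 h. The 8 h DMSO library was also the lowest of the 3 DMSO libraries in 12 of the 15, against 31.2% of all genes. On the log2 scale the 15 had median differences of -1.56, -0.82 and -1.37 at 4, 8 and 12 h. A test of time by ibrutinib exposure over all 12 libraries called 0 genes (0%), with 252 at an unadjusted p under 0.05 and a smallest adjusted p of 0.607 (edgeR). DESeq2's likelihood ratio test called 2. The 5 genes with the smallest p for it were EGR1, TNF, NR4A1, ICAM1 and RBM20, a splicing factor at 10.5, 16.4 and 23.2 CPM in DMSO against 7.40, 23.5 and 24.9 CPM with ibrutinib. On the log2 scale the first 4 had their largest difference at 4 h.

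No gene was called higher in the filtered edgeR fit, against 104 without the low-count filter. The 10 genes with the smallest p among those higher at all 3 times, at mean log2 CPM of at least 2, were NOTCH3, RAVER1, PLEC, KIAA0040, PODXL, SESN3, JAM3, SLX4, KLF13 and FOXO4. NOTCH3, a Notch receptor, was at 44.4, 61.6 and 88.7 CPM in DMSO against 58.2, 105 and 116 CPM with ibrutinib (log2 0.51 ± 0.11, adjusted p = 0.142, edgeR). It passed in 3 of the 20 alternatives, among them DESeq2 (adjusted p = 0.0100) and no low-count filter (adjusted p = 5.4e-04, edgeR). RAVER1, a splicing co-regulator, was at 15.3, 17.0 and 24.0 against 21.7, 31.4 and 29.2 CPM, and PLEC, a cytoskeletal linker, at 33.7, 57.5 and 69.8 against 46.3, 94.3 and 81.1 CPM. All 3 overlapped between the groups, and all 3 had their widest gap at 8 h. The 10 had transcripts of 3301 to 15249 bases, and their median differences were 0.41, 0.62 and 0.27 at 4, 8 and 12 h.

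On the lower side, the 10 genes next to the 15 were SIAH2, PLK3, CSF1, PTPN6, TNFAIP3, ENSG00000274422, BIRC3, ZBTB32, CD40 and GALNT6, at adjusted p of 0.130 to 0.187 (edgeR). PTPN6, the phosphatase SHP-1 that restrains B-cell receptor signals, was at 382, 465 and 487 CPM in DMSO against 313, 348 and 344 CPM with ibrutinib, with no overlap (log2 -0.40 ± 0.08, adjusted p = 0.147, edgeR). CSF1, the macrophage growth factor, was at 18.4, 11.3 and 18.7 against 9.53, 8.71 and 8.29 CPM, also with no overlap (log2 -0.85 ± 0.17, adjusted p = 0.133, edgeR). SIAH2, a ubiquitin ligase, was at 96.8, 65.3 and 66.1 against 56.4, 48.6 and 51.3 CPM. PTPN6, CSF1 and SIAH2 passed in 2, 7 and 4 of the 20 alternatives that follow the headers.

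No gene of the receptor pathway upstream passed in the filtered edgeR fit. BTK, the target of the drug as a protein, was at 315, 307 and 376 CPM in DMSO against 316, 332 and 355 CPM with ibrutinib (log2 0.02 ± 0.08, adjusted p = 0.954, edgeR). Of 23 tested B-cell receptor signalling genes 0 passed and 18 had a positive log2 fold change, with a median of 0.06. DESeq2 and the fit without the low-count filter each called 1 of the 23 lower, and the fit without the 12 h libraries called 1 higher. PIK3R1, a regulatory subunit of phosphoinositide 3-kinase, was at 55.4, 51.7 and 67.0 against 73.1, 71.1 and 72.5 CPM with no overlap, and did not pass (adjusted p = 0.452, edgeR). It passed without the 12 h libraries (adjusted p = 0.0451, edgeR). Of 9 tested kinases known to bind ibrutinib 0 passed. Among them, JAK3, TEC and BLK had log2 fold changes of 0.03, 0.19 and 0.06.

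**Figure D3:**
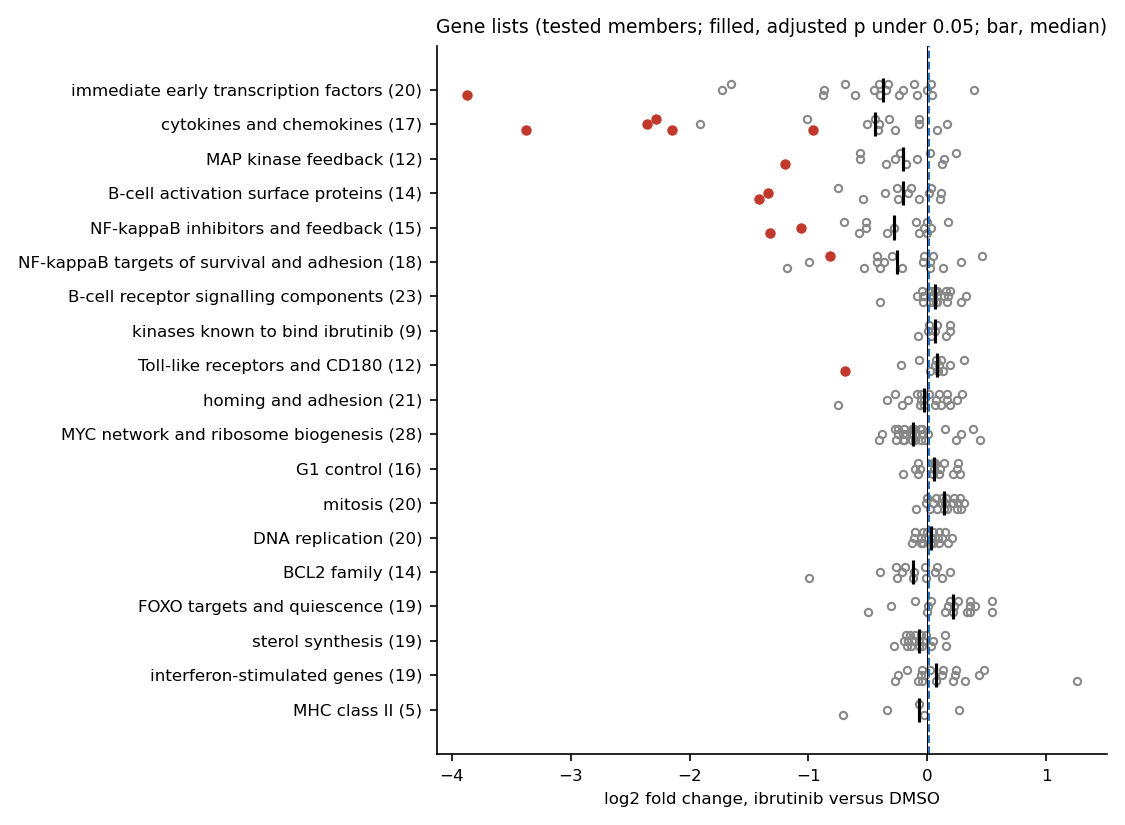
Each point is the log2 fold change of ibrutinib versus DMSO (horizontal axis) of 1 tested member of a gene list (vertical axis, number tested in parentheses), filled where the adjusted p was under 0.05. Black bars are list medians, the dashed line is the median of all genes tested, and of the lists drawn immediate early factors (median -0.37) and cytokines (median -0.44) lie furthest to the left, and FOXO targets (median 0.22) furthest to the right.

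Lists of growth and cell cycle genes held no gene past the threshold in the filtered edgeR fit. The FOXO and quiescence list, genes that FOXO factors induce when phosphoinositide 3-kinase signals are low, had 15 of 19 members positive and a median of 0.22, with 10 higher at all 3 times, beside 2693 of the 14412 genes tested. SESN3 was at 14.4, 24.3 and 27.7 CPM in DMSO against 22.4, 34.0 and 40.2 CPM with ibrutinib, FOXO4 at 5.66, 7.25 and 9.01 against 6.74, 11.6 and 14.0 CPM, and TOB1, an antiproliferative factor, at 15.8, 15.4 and 17.2 against 20.8, 19.9 and 21.6 CPM. TOB1 and the autophagy kinase ULK1 (15.7, 15.3 and 15.3 against 18.3, 21.5 and 19.7 CPM) did not overlap between the groups, yet none of the 4 passed (adjusted p = 0.332 to 0.452, edgeR). SESN3 passed in 3 of the 20 alternatives and FOXO4 in 1. MYC network and ribosome biogenesis genes were negative in 22 of 28 (median -0.12), NOP16 having the smallest p (log2 -0.38, adjusted p = 0.452, edgeR). NOP16 passed without the low-count filter and without the 12 h libraries (adjusted p = 0.0424 and 0.0211, edgeR). Of the 28, 2 were called lower without the filter, and 2 lower and 1 higher without the 12 h libraries. Mitosis genes were positive in 17 of 20 (median 0.14), with KIF11 at 262, 262 and 301 against 311, 328 and 317 CPM and no overlap. DNA replication (20 tested), G1 control (16), sterol synthesis (19) and the BCL2 family (14) had medians of 0.03, 0.06, -0.07 and -0.12. BCL2A1, an NF-kappaB-induced survival gene, was at 29.1, 5.57 and 4.58 against 14.1, 2.92 and 2.22 CPM, lower at each time and without passing (log2 -0.99 ± 0.31, adjusted p = 0.452, edgeR). It passed with the 6 libraries alone, without the low-count filter and without the 12 h libraries (adjusted p = 0.00489, 2.4e-07 and 0.0193, edgeR).

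Interferon-stimulated genes had a median of 0.07 over 19 tested. IFIT2, induced by interferon and by viral RNA sensors, was at 0.69, 1.23 and 1.16 CPM in DMSO against 1.19, 2.52 and 3.89 CPM with ibrutinib, higher at each time (log2 1.25 ± 0.27, adjusted p = 0.175, edgeR). At these low levels IFIT2 passed with DESeq2 (adjusted p = 0.0488) and without the low-count filter (adjusted p = 2.6e-04, edgeR). The median of 21 tested homing and adhesion genes was -0.03, and the medians of the lists for amino acid and unfolded protein stress, MHC class II, p53 targets, hypoxia and glycolysis, and mitochondrial transcripts were -0.06, -0.07, -0.04, -0.05 and -0.11, with 0 members past the threshold. Over the 20 alternatives that follow the headers, the medians of homing, DNA replication, sterol synthesis, p53, mitochondrial, Toll-like receptor and ibrutinib-binding kinase genes took both signs. That of sterol synthesis was positive only without the 12 h DMSO library, at 0.02.

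Transcript length moved with the comparison at 4 and 8 h. Across genes within a library, Spearman's rho between deviation from the mean level and length was 0.17, 0.41 and 0.32 in the ibrutinib libraries and -0.15, -0.30 and 0.37 in DMSO, highest in the 8 h ibrutinib library. The difference between them had rho of 0.35 at 4 h, 0.47 at 8 h and -0.06 at 12 h over 14316 genes with a length. At 8 h the median difference was -0.29 in the shortest of 5 length classes and 0.30 in the longest, at 4 h -0.16 and 0.15, and at 12 h 0.03 and -0.01. Genes are not independent replicates, and rho is a description. The SD of the log2 difference over 10113 genes with a mean log2 CPM of at least 2 was 0.24, 0.33 and 0.18 at 4, 8 and 12 h. More than 1 log2 unit lower were 22, 15 and 19 genes, and more than 1 higher 2, 13 and 1.

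**Figure D4:**
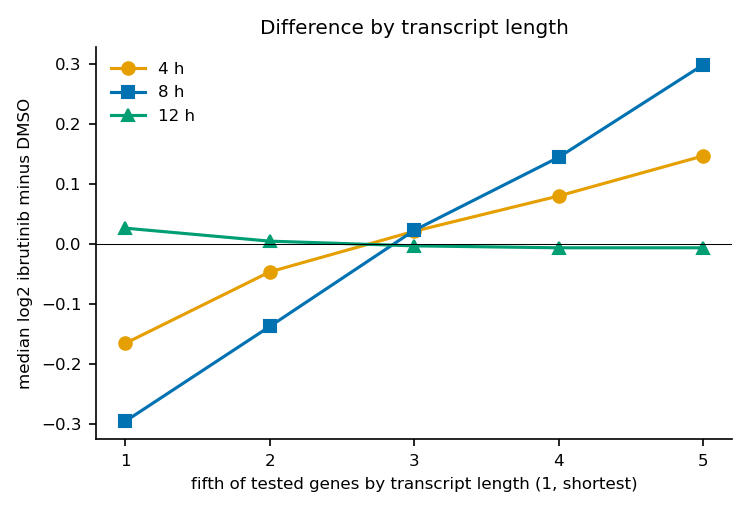
The median log2 difference between ibrutinib and DMSO (vertical axis) is plotted for 5 classes of the tested genes by transcript length (horizontal axis, 1 being the shortest) at 4, 8 and 12 h. The line climbs from -0.29 to 0.30 at 8 h and from -0.16 to 0.15 at 4 h, and at 12 h it stays between -0.01 and 0.03.

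The 15 genes had a median transcript length of 1718 bases, against 3330 for all genes tested. At 12 h, where the difference had almost no trend with length, all 15 were lower, from -0.41 for MIR17HG to -3.27 for EGR3. The 12 h libraries were among those that picked the 15, so these falls are a description and no separate test. With a trend of length and GC content removed from each library, 23 genes passed, all lower, and 14 of the 15 were among them. LTA missed the threshold, at -0.83 ± 0.17 (adjusted p = 0.103, edgeR). The other 9 were BIRC3, IRF4, TNFAIP3, TRAF4, CSF1, GALNT6, SIAH2, VASH2 and ABCA6, named after their values were seen. IRF4, a transcription factor of activated B cells and plasma cells, was at 185, 86.5 and 113 CPM in DMSO against 124, 79.1 and 76.9 CPM with ibrutinib. Its log2 fold change was -0.42 (adjusted p = 0.213, edgeR) and, with the trend removed, -0.51 (adjusted p = 0.00991, edgeR). Without the 8 h ibrutinib library and with the trend removed, a fit added after the data were seen, 23 genes passed as well, and all 15 were among them. NOTCH3, RAVER1 and PLEC, with transcripts of 8666, 4693 and 15249 bases, were not among the 23.

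Ibrutinib was also given to cells that had SPX5551, and those 6 libraries are in neither group of the comparison above, although they entered the same fit and share its time terms and its estimate of spread. In combination versus SPX5551, 572 genes (3.97%) were lower and 471 (3.27%) higher at an adjusted p under 0.05 (edgeR). With scaling by library size alone these were 393 and 871. Without 4 h 129 genes passed in all, without 8 h 443 and without 12 h 568. Leaving out 1 library gave 343 (SPX5551 at 8 h), 540 (SPX5551 at 12 h), 514 (combination at 4 h) and 395 (combination at 12 h). With the time block dropped 5 passed, and with these 6 libraries alone 496. Length moved with this comparison too: rho was -0.20, -0.40 and -0.38 in the SPX5551 libraries and -0.02, -0.30 and 0.24 in the combination, furthest apart at 12 h. With the trend of length and GC content removed, 1223 genes were lower and 623 higher, and its part in the counts was not otherwise tested. All 15 genes were among the 572, lower at all 3 times, with the 3 combination libraries below the 3 SPX5551 libraries in each. All 15 passed with the trend removed. DESeq2 called 13 of them, where a gene with no adjusted p counts as not called. TNF was at 10.7, 8.82 and 18.6 CPM with SPX5551 and 0.44, 1.87 and 1.91 CPM with the combination, a log2 fold change of -3.14 ± 0.34 (adjusted p = 2.2e-04, edgeR). EGR3 was at 1.60, 1.18 and 2.08 against 0.131, 0.136 and 0.375 CPM (-2.90 ± 0.36, adjusted p = 6.9e-04, edgeR). MIR17HG was at 117, 114 and 129 against 52.4, 52.8 and 67.5 CPM, a log2 fold change of -1.07 ± 0.09 beside -0.54 ± 0.09 for ibrutinib alone. NFKBIA, at 65.8, 55.8 and 68.0 against 36.5, 36.8 and 23.6 CPM, had -0.98 beside -1.06.

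Of the 10 genes next to the 15 on the lower side, 9 passed as lower in combination versus SPX5551, and of the 10 on the higher side 6 passed as higher. Those on the higher side had a median transcript length of 6497.5 bases, against 3330 for all genes tested, and both comparisons moved with length. The part of length in the 6 passes was not tested. EGR1 passed there too, at 8.34, 12.9 and 10.4 against 0.88, 6.16 and 2.55 CPM (-1.82 ± 0.39, adjusted p = 0.0120, edgeR). A test of whether the effect of ibrutinib differed between cells with and without SPX5551, added after the data were seen, called 0 genes (0%), with 845 at an unadjusted p under 0.05 and a smallest adjusted p of 0.285 (edgeR). The gap between 15 and 1043 calls is thus not a tested difference of any named gene.

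**Figure D5:**
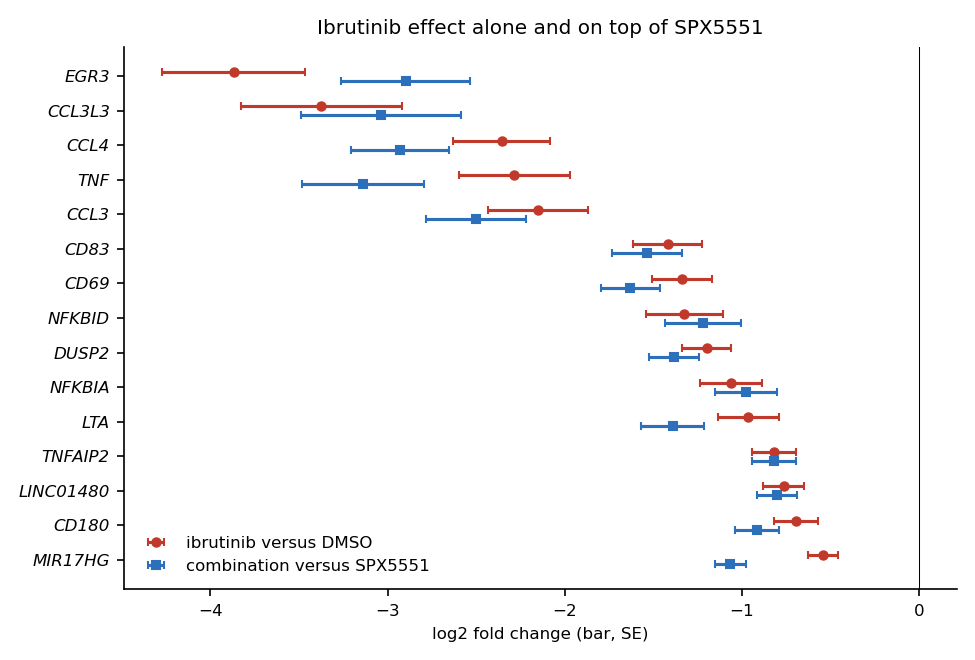
The log2 fold change (horizontal axis, bars are SE) of the 15 genes is shown for ibrutinib versus DMSO (circles) and for combination versus SPX5551 (squares). Both lie below 0 in all 15, with MIR17HG at -0.54 and -1.07 and EGR3 at -3.87 and -2.90.

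In bulk RNA, fewer cells that express a gene and less RNA per cell cannot be told apart. Whether reads were counted by strand is not stated. EGR3, CCL3, CCL3L3 and NFKBID overlap other annotated genes, which held 18, 1, 0 and 32 counts over the 12 libraries.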

How the data were processed

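Raw counts for 60483 Ensembl genes were deposited, together with a log2 CPM table (14767 genes, lowest value -3.50), with time, cell line and treatment per the file headers. Per the labels' protocols, poly(A) RNA was selected and made into directional libraries, although the molecule is labelled genomic DNA. Per the submitters' processing notes, BWA and hg38 were used. Not given in the sources used here are the counting tool, its strand setting and the annotation release. Symbols, positions and lengths came from GENCODE 29 (93.8% of identifiers matched).

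A low-count filter (filterByExpr, edgeR 4.0.16 under R 4.3.3) left 14412 genes holding 99.9% of the counts, and libraries were scaled by TMM. The 12 libraries entered 1 quasi-likelihood fit with treatment and time as additive terms (6 residual degrees of freedom, common biological coefficient of variation 0.101), with Benjamini-Hochberg adjusted p under 0.05 over all genes. The SE is the size of the log2 fold change over the root of its F statistic. Differences at single times used log2 CPM with a prior count of 2. Time by exposure was tested with time, ibrutinib exposure, SPX5551 exposure and the interaction. Recomputed log2 CPM correlated with the deposited values at r that rounds to 1, and limma 3.58.1 was run on them. DESeq2 1.42.0 was an alternative. The fit was tested on simulated data. Libraries held 19336303 to 28934030 counts. PCR copies were not marked, so intervals cover counting error only. No 2 libraries matched within sampling noise: the most alike, DMSO and ibrutinib at 12 h, had a chi-square 5.03 times its degrees of freedom.

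Named genes were all genes past the threshold, the 10 of smallest p outside it in each direction (mean log2 CPM of at least 2, same sign at all times), up to 4 members of smallest p per list, kinases that bind ibrutinib, and 5 genes of smallest p for time by exposure. The 9 genes added by the trend removal, LTB, CXCL10 and CCL4L2 were chosen after their values were seen. The comparison, the lists and this rule were chosen with earlier results of these data known. Some items are not reported here.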

Additional observations from a re-analysis of the deposited data

How the results depend on the processing

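The 15 genes kept a negative log2 fold change in all 20 alternatives that follow the headers. Against 15 calls, DESeq2 gave 40 (2 higher), no filter on low counts 216 (104 higher), the 6 libraries alone 26 (2 higher), removal of the length and GC trend 23, the same without the 8 h ibrutinib library 23, and no replicate block 0. Leaving out single libraries or times gave 0 to 670. With columns assigned by the descriptions 1379 genes passed, and the 15 were positive, in a pairing that sets the columns headed DMSO against those headed as the combination, a different contrast: DUSP2 1.46, CD180 1.17, CD83 1.60, LTA 1.56, TNF 3.46, EGR3 3.23, CD69 1.46, MIR17HG 1.09, NFKBIA 0.90, TNFAIP2 0.88, CCL3 2.42, CCL4 2.80, CCL3L3 3.42, NFKBID 1.15 and LINC01480 0.55. Against 1043 calls for combination versus SPX5551, no filter gave 1788, the 6 libraries alone 496, no replicate block 5, the trend removed 1846, and leaving out libraries or times 129 to 1173. Against 0 calls for time by exposure, no filter gave 21, DESeq2 2, and leaving out libraries 0 to 1. The cause of these shifts was not tested. Time is the block in the main fit; the numbers of replicates only name samples. EGR3 and CCL3L3 rest on 2 to 4 counts per ibrutinib library, so depth limits the size of their falls. LTA, CD180 and MIR17HG missed the threshold in 12, 10 and 8 of the 20 alternatives, DUSP2, EGR3 and CCL4 in 2 each.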
